A study of Xenopus laevis with 12 samples.

Results

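The genes of fibroblast growth factor (FGF) signalling were measured in whole *Xenopus laevis* embryos: the secreted ligands, their receptors, the adaptors and transcription factors that carry the signal, and the inhibitors that the signal switches on. They were taken from the gene symbols alone, by the name stems fgf, fgfr1 to fgfr4, fgfrl1, fgfbp, spry, spred, etv1, etv4, etv5, dusp6, il17rd, flrt, frs2 and frs3. Of 42638 identifiers, 80 matched, and 51 of these passed a filter of at least 1.8 CPM (counts scaled to a common library size) in 3 or more libraries, among 21731 genes that passed it in all. Many genes of this allotetraploid frog exist in paired copies, written .L and .S, and both copies were kept for 21 of the genes named here. The pattern also took in fgfr1op2.L and fgfr1op2.S, which are named for a fusion partner of FGFR1 and are not part of the pathway.

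The embryos were wild type and had been fertilized in vitro. Samples labelled thioridazine-treated had been kept in 90 µM thioridazine, an antipsychotic drug of the phenothiazine class that blocks dopamine receptors, from stage 12.5 to stage 25, and untreated samples were kept in the same dilute Ringer's solution at the same temperature. The labels distinguish small and large groups, which the RNA sequencing results of the study give as 100 and 300 embryos. The methods of the study name other numbers of embryos where they give the volume of medium. Each of the 4 groups (untreated 100, untreated 300, thioridazine 100 and thioridazine 300) had 3 libraries, made from 15 pooled embryos each and numbered 1 to 3 in the labels, all collected at stage 25. The labels do not say whether these are separate clutches or cultures, so the p-values cover only the spread among these particular samples, which may be technical.

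Most FGFs are secreted proteins that bind heparan sulfate and a tyrosine kinase receptor at the cell surface. The receptor passes the signal through the adaptor Frs2 to Ras and the kinase Erk, and Erk activity switches on the ETS factors Etv1, Etv4 and Etv5 together with the inhibitors Dusp6, Sprouty, Spred and Il17rd (Sef), which dampen the pathway again. In the frog embryo FGF signalling is known for maintaining mesoderm and the growing tail bud, and Fgf8 also for patterning the boundary between midbrain and hindbrain.

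The libraries held between 3497198 and 7822395 expected counts, so that 1 count was worth 0.125 to 0.302 CPM. Libraries with the same number resembled each other across groups, and those numbered 1 stood apart: 40.8% of all genes differed between them and the other 8 libraries. All 8 lists of tissue markers had measured genes, from 4 to 12 symbols a list. In the blood and vessel list hba1, hbg1, gata1 and cdh5 were not among the genes that passed the filter. In whole embryos, fewer cells of a type and less RNA per cell cannot be told apart.

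At this stage 51 of the 80 identifiers passed the filter and 29 were too low to test. Those left out were fgf1, fgf4, fgf6, fgf11, fgf19, fgf23.1 and fgf23.2 in both copies, the single copies fgf2.S, fgf7.S, fgf9.S, fgf10.S, fgf12.S, fgf16.S and fgf22.L, the binding proteins fgfbp2.L, fgfbp2.S and fgfbp3.S, flrt1.S, and both copies of spred3 and spry3. Of these, 5 had 0 counts in all 12 libraries. No identifier matched etv5, and etv1 and etv4 were found only as etv1.S and etv4.L. The filter asks for 3 libraries, so the lowest of a gene's 3 highest libraries decides: just inside, that library had 1.83 CPM for fgf13.S, 1.92 for fgfbp1.S and 2.33 for fgf5.S, and just outside it had 1.68 CPM for fgf10.S, 1.65 for fgf7.S and 1.55 for fgf12.S. The 3 genes just inside reached the minimum in 3 libraries each, fgf7.L in 4, flrt1.L in 5 and frs3.L in 6, so they were tested because of the samples in which they were high.

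The first question was whether thioridazine changed the level of FGF genes. None of the 51 passed the test (edgeR, adjusted p under 0.05) with the group sizes averaged, where 0.0874% of all genes did, all of them higher. None passed in groups of 100 or of 300 either, where 0.0092% of all genes passed at each size. With the sample number as a block in the fit, 0.433% of all genes were called with the sizes averaged, 0.179% in groups of 100 and 0.258% in groups of 300, and again none of the 51. DESeq2, without or with the block, called none of the 51 either. At an unadjusted edgeR p under 0.05 stood 0 of the 51 with sizes averaged and 0 in groups of 100, against 1.69% and 1.01% of all genes. With the block 3 of the 51 stood there in each of the 3 comparisons, against 4.97% of all genes with sizes averaged, 3.4% in groups of 100 and 7.54% in groups of 300. The median log2 fold change of the 51 genes was 0.04, beside -0.01 over all genes, and 30 of the 51 were above 0.

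The 14 feedback inhibitors are the usual transcriptional readout of the pathway. With the sizes averaged, their log2 fold changes for thioridazine against untreated lay between -0.11 and 0.32, with a median of 0.04. In groups of 100 the median was -0.01, with 7 of the 14 above 0. In groups of 300 it was 0.18, with 10 of the 14 above 0. The difference between the sizes had a median of 0.15, with 9 of the 14 above 0. None of the 14 was called in these comparisons, and they were not tested as a set. In the fit without the block and with the sizes averaged, the smallest p of the 51 belonged to spry4.L. It is a Sprouty inhibitor of the signal between receptor and Erk. With the block, fgfbp1.L, given below, had the smallest adjusted p in edgeR (0.195). In the order of samples 1, 2 and 3, spry4.L measured 45.6, 45.5 and 48.9 CPM in untreated 100-embryo groups, 36.4, 61.9 and 47.8 in untreated 300-embryo groups, 50.6, 70.0 and 55.8 in treated 100-embryo groups, and 57.6, 71.3 and 52.2 in treated 300-embryo groups. The treated library was the higher one in all 6 same-numbered pairs, but the 6 treated and the 6 untreated libraries overlapped. The log2 fold change of spry4.L was 0.32 (SE 0.15, edgeR unadjusted p = 0.0515, adjusted p = 1), or 0.695 as the adjusted p with the block. Its copy spry4.S measured 18.8, 19.3 and 17.9 CPM in untreated 100-embryo groups, 11.9, 17.8 and 19.7 in untreated 300-embryo groups, 12.5, 21.0 and 17.6 in treated 100-embryo groups, and 19.6, 18.9 and 18.4 in treated 300-embryo groups. Its difference was 0.04 on the log2 scale (SE 0.17), with the treated library higher in 3 of 6 pairs.

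Next in the fit without the block was spry2.S, another Sprouty. In the same order it measured 23.9, 20.7 and 23.1 CPM in untreated 100-embryo groups, 16.2, 24.6 and 20.6 in untreated 300-embryo groups, 21.6, 23.4 and 26.7 in treated 100-embryo groups, and 25.8, 31.7 and 28.1 in treated 300-embryo groups. All 3 treated libraries of groups of 300 were above the untreated ones of that size, and in groups of 100 the treated library was higher in 2 of 3 pairs. The log2 fold change was 0.28 with sizes averaged (SE 0.13) and 0.48 in groups of 300 (SE 0.19), each with an adjusted p of 1 in edgeR. In groups of 300 it was the 1 FGF gene with an unadjusted edgeR p under 0.05, against 1.93% of all genes. The copy spry2.L measured 19.4, 17.6 and 22.8 CPM in untreated 100-embryo groups, 16.9, 18.1 and 23.8 in untreated 300-embryo groups, 17.2, 21.0 and 19.7 in treated 100-embryo groups, and 21.3, 24.9 and 20.5 in treated 300-embryo groups, with overlap at both sizes.

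The other inhibitors stayed closer to 0. Dusp6 is the phosphatase that removes the activating phosphates from Erk, and dusp6.L had a log2 difference of 0.20 (95% interval -0.12 to 0.51) with 5 of 6 pairs higher under thioridazine, while dusp6.S had 0.10 (-0.28 to 0.49) with 3 of 6. For il17rd.L and il17rd.S, copies of a membrane inhibitor of FGF receptors, the differences were -0.11 and -0.08. The Spred genes spred1.L, spred1.S, spred2.L and spred2.S, and spry1.S and spry1.L, complete this set, with log2 differences between -0.05 and 0.06.

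**Figure D1:**
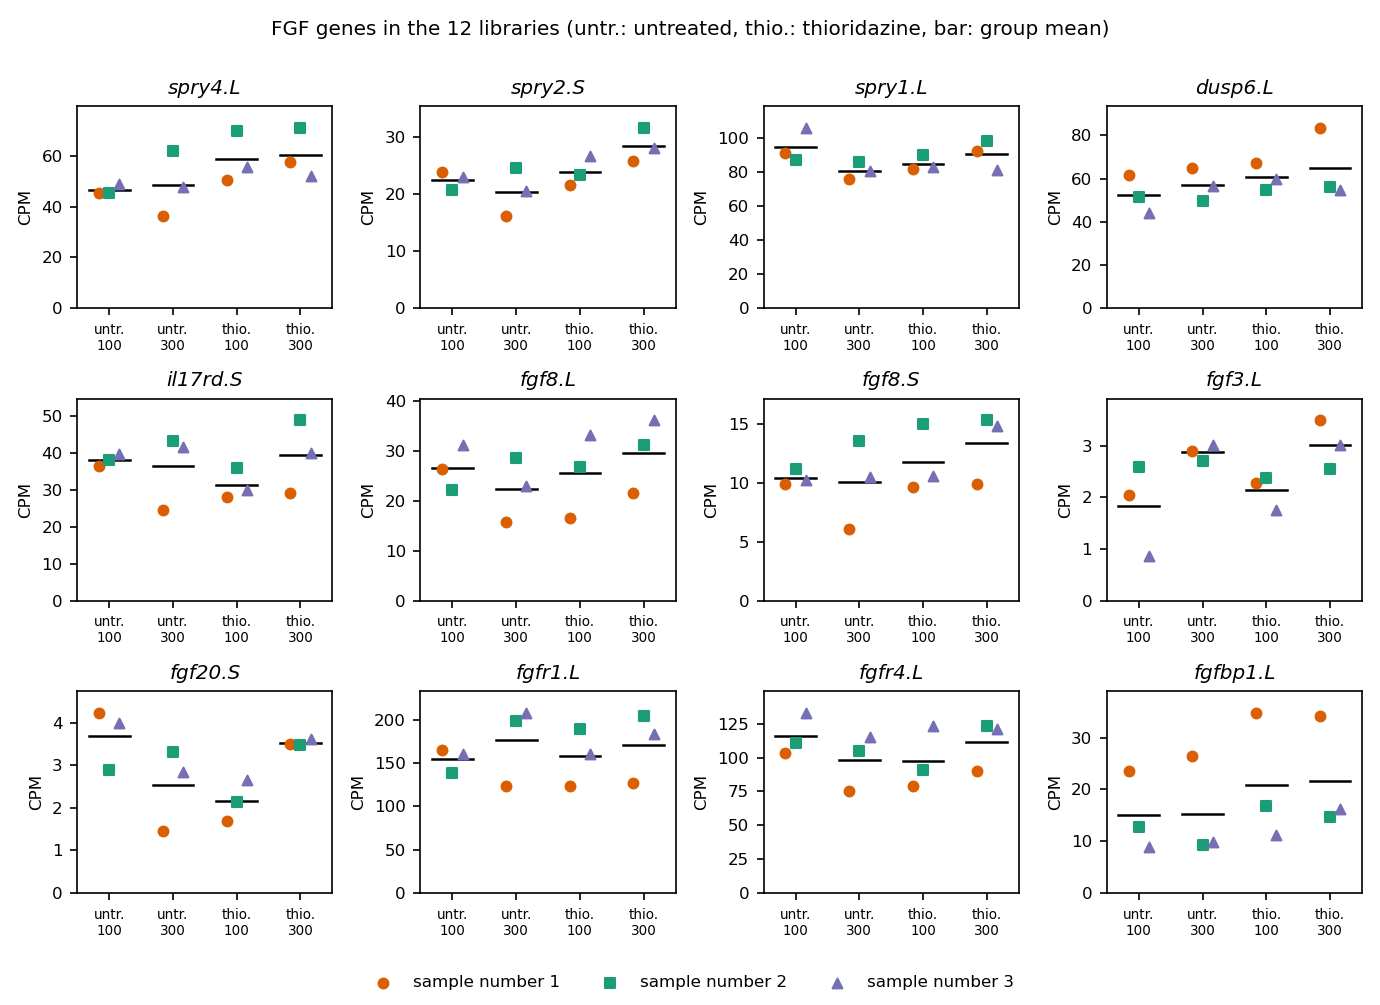
CPM of 12 FGF genes (y axis, from 0) in the 4 groups (x axis), with 1 point per library, the marker giving the sample number and the bar the mean of 3 libraries. With the group sizes pooled, treated and untreated libraries overlap in every panel. At a single size some lie apart, as for fgf20.S at both sizes. For fgfbp1.L the 4 libraries numbered 1, between 23.5 and 34.8 CPM, lie above the other 8.

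Among the ligands, the log2 differences between treated and untreated embryos ran from -0.59 for fgf5.S to 0.41 for fgf7.L, with a median of -0.01 over 10 genes, and both of these extremes were low-count genes. Fgf8, the main FGF of the tail bud and the midbrain-hindbrain boundary, had differences of 0.16 for fgf8.L (95% interval -0.29 to 0.62) and 0.29 for fgf8.S (-0.17 to 0.76), each copy higher in 5 of 6 pairs. For fgf2 the difference was 0.01 (-0.81 to 0.82). The remaining ligands kept were fgf3, fgf20 and fgf10.L, the last of these an FGF of limb and lung buds in other vertebrates.

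The treated libraries of 1 ligand copy lay on opposite sides of the untreated ones at the 2 group sizes. This copy, fgf20.S, measured 4.23, 2.88 and 3.98 CPM in untreated 100-embryo groups and 1.70, 2.13 and 2.65 in treated 100-embryo groups, so that all 3 treated libraries were below all 3 untreated ones. In groups of 300 it measured 1.45, 3.30 and 2.84 CPM untreated and 3.49, 3.48 and 3.62 treated, so that all 3 treated libraries were above. Counts of fgf20.S were low. In groups of 100 they were 29, 10 and 14 untreated and 12, 17 and 9 treated. In groups of 300 they were 11, 22 and 16 untreated and 18, 26 and 12 treated. The nearest libraries lay close, at 2.88 and 2.65 CPM in groups of 100 and at 3.30 and 3.48 in groups of 300. Ranges apart in opposite directions at both sizes were found for 0.152% of all genes. The log2 difference of fgf20.S was -0.80 (SE 0.39) in groups of 100 and 0.48 in groups of 300. The 2 responses differed by 1.29 on the log2 scale (SE 0.55, edgeR unadjusted p = 0.036, adjusted p = 1). The copy fgf20.L measured 2.48, 5.47 and 6.55 CPM in untreated 100-embryo groups, 1.72, 3.75 and 4.27 in untreated 300-embryo groups, 2.70, 3.51 and 3.82 in treated 100-embryo groups, and 1.36, 4.01 and 3.93 in treated 300-embryo groups, with overlap between treated and untreated libraries at both sizes.

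The receptors lay near 0. For the 7 receptor genes kept (fgfr1.L and both copies of fgfr2, fgfr3 and fgfr4), the tyrosine kinases that bind the ligands, the log2 difference with thioridazine lay between -0.17 and 0.04. The 95% interval was -0.39 to 0.37 for fgfr1.L, -0.23 to 0.22 for fgfr2.L and -0.20 to 0.29 for fgfr2.S. Both copies of fgfrl1, a receptor without a kinase domain, lay at -0.11 and -0.04. The adaptors frs2 and frs3 lay between -0.06 and 0.33, and etv1.S and etv4.L, the ETS factors downstream, at 0.01 (95% interval -0.49 to 0.51) and 0.08 (-0.29 to 0.46).

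FLRT proteins are membrane proteins with leucine-rich repeats, and in *Xenopus* FLRT3 binds FGF receptors and enhances their signal. The 5 FLRT genes lay between -0.11 and 0.19. The highest of them, flrt2.L, was higher with thioridazine in 6 of 6 pairs (0.19, SE 0.12), and flrt1.L, flrt2.S, flrt3.L and flrt3.S did not pass either. Fgfbp1 carries FGFs away from the heparan sulfate that stores them. The copy fgfbp1.L measured 23.5, 12.7 and 8.82 CPM in untreated 100-embryo groups, 26.5, 9.30 and 9.95 in untreated 300-embryo groups, 34.8, 16.8 and 11.2 in treated 100-embryo groups, and 34.1, 14.6 and 16.3 in treated 300-embryo groups. Sample 1 was the highest in every group, and within each number the treated library was higher than the untreated one in 6 of 6 pairs. The log2 fold change was 0.48 (SE 0.38, adjusted p = 1) without the sample number in the fit and 0.51 (SE 0.13, adjusted p = 0.195) with it as a block, both in edgeR. It passed in 1 alternative, limma voom with 2 surrogate variables as covariates (adjusted p = 0.0171). In all, 3 of the 51 genes were higher with thioridazine in 6 of 6 pairs (fgfbp1.L, flrt2.L and spry4.L), against 2.64% of all genes, and none was lower in all 6, against 1.24%.

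For fgfbp1.S the counts were too few for a fold change to be read. They were 3, 0 and 0 in untreated 100-embryo groups, 39, 0 and 2 in untreated 300-embryo groups, 19, 2 and 7 in treated 100-embryo groups, and 7, 2 and 2 in treated 300-embryo groups. The highest count came from 1 untreated library, sample 1 of groups of 300. The pair fgfr1op2, outside the pathway, is given because of the small p of fgfr1op2.L. That copy measured 3.06, 3.17 and 2.85 CPM in untreated 100-embryo groups, 2.11, 3.15 and 2.67 in untreated 300-embryo groups, 3.69, 4.01 and 4.12 in treated 100-embryo groups, and 3.30, 2.81 and 6.04 in treated 300-embryo groups. Its log2 difference was 0.48 (SE 0.25, adjusted p = 1). The copy fgfr1op2.S measured 12.5, 15.5 and 13.4 CPM, 17.2, 16.9 and 10.5, 14.0, 17.5 and 15.6, and 14.3, 15.1 and 17.5 in the same order of groups, with overlap throughout.

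The intervals give the sizes of change that are compatible with these values. With the group sizes averaged, the 95% interval of the thioridazine difference lay within a 2-fold change in either direction for 40 of the 51 genes (80.1% of all genes) and within 1.5-fold for 33 (48.9%). With the block these numbers were 47 and 37. The 11 genes with wider intervals were fgf5.S, fgf7.L, fgf12.L, both copies of fgf13, fgf20.L, both copies of fgfbp1, fgfr1op2.L, flrt1.L and frs3.L. For a gene that did not pass, a true change of any size inside its interval remains possible.

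**Figure D2:**
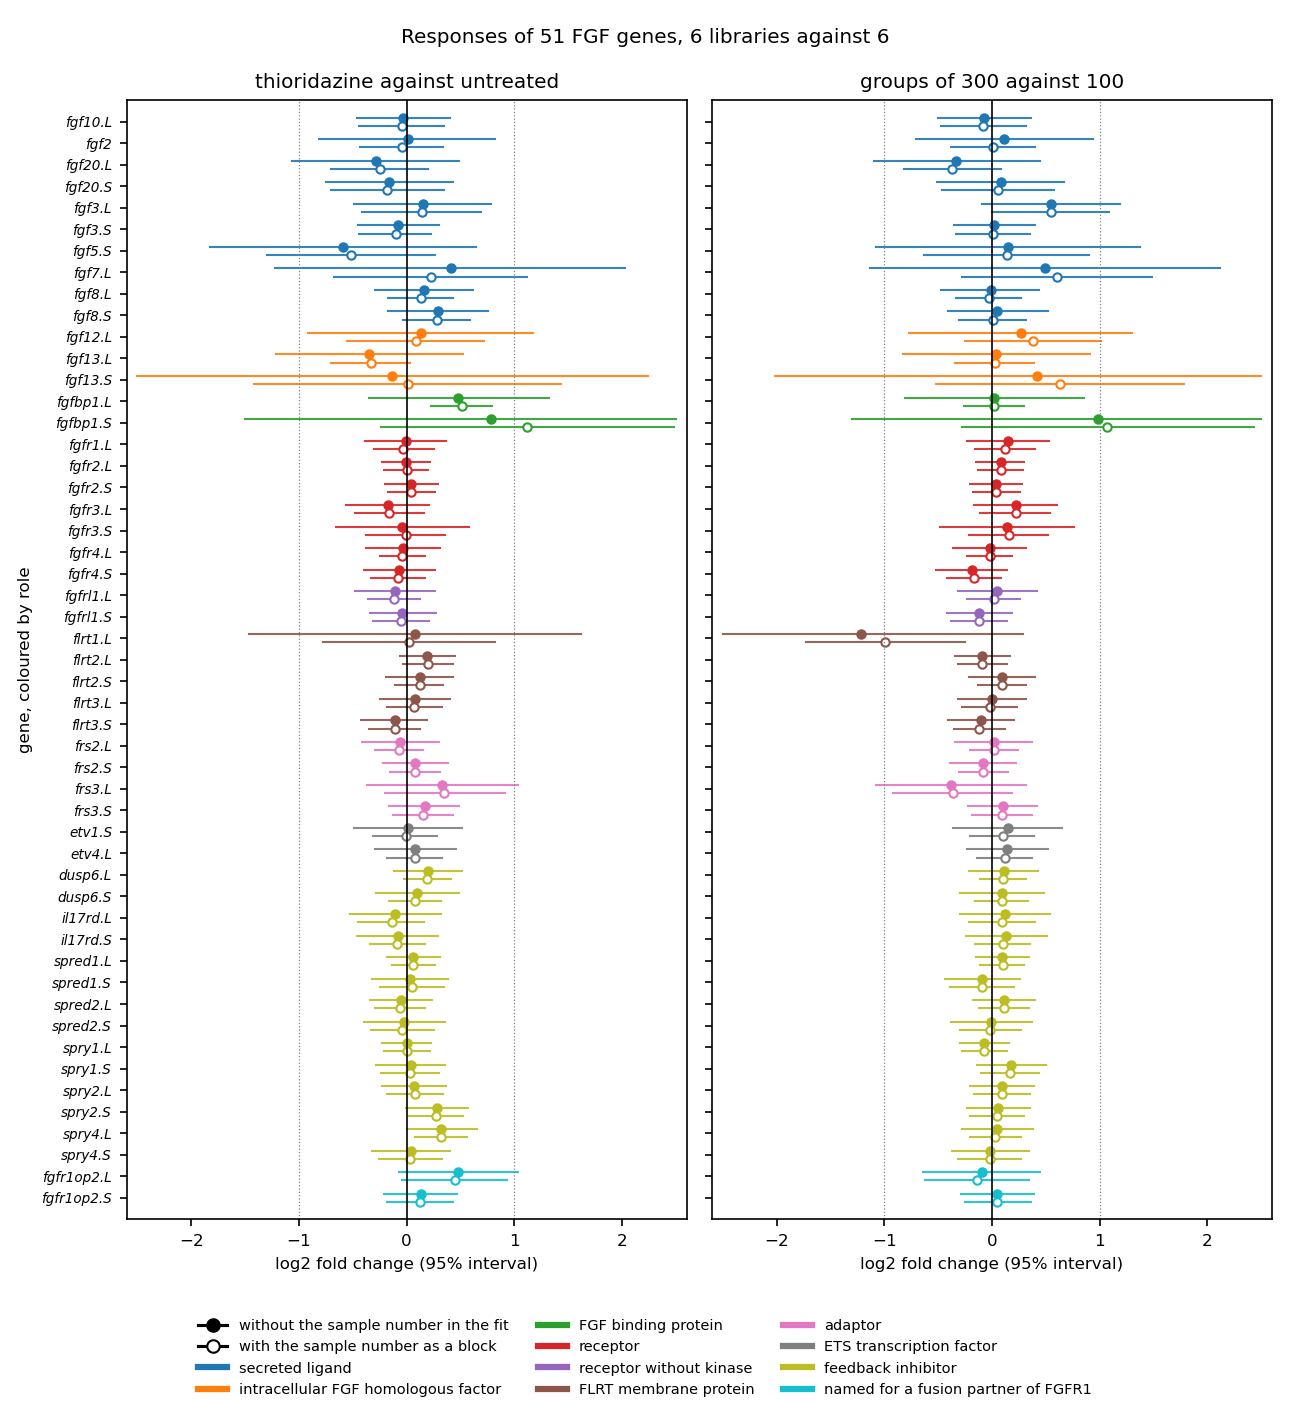
Log2 fold change (x axis) of the 51 FGF genes (rows, coloured by role) with its 95% interval, for thioridazine against untreated (left) and groups of 300 against 100 (right), filled without and open with the sample number as a block, intervals being drawn only as far as 2.5. Most intervals lie inside the dotted lines that mark a 2-fold change, 40 of 51 on the left and 42 of 51 on the right without the block.

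The genes around the FGF set were compared in the same fits. Of all genes, 0.0874% were called for thioridazine with sizes averaged, and 0.433% with the block. The Ras and Erk cascade had 0 of 52 genes called for thioridazine, and the enzymes and carriers of heparan sulfate, the co-receptor of FGFs, 0 of 45. Of 42 genes known to respond to FGF or Erk in various settings, 2 were higher and none lower: junb.S (log2 fold change 1.27, SE 0.19, edgeR adjusted p = 0.032) and junb.L (1.51, SE 0.23, adjusted p = 0.032), copies of an AP-1 transcription factor that many stimuli induce. With the block 5 of the 42 were higher, among them fos.L at 3.43 (SE 0.45, adjusted p = 0.0033), a partner of Junb. The medians of the 3 lists were -0.06, -0.02 and 0.08 with sizes averaged, beside -0.01 for all genes. In groups of 100 they were 0.01, -0.03 and -0.01, and in groups of 300 they were -0.11, -0.06 and 0.29. Among the genes known to respond to FGF or Erk, the difference between the sizes was above 0 for 35 of 42. Its median was 0.3, no gene was called for it, and the list was not tested as a set. Such a shift was not particular to this list. In the tissue lists the same difference had a median of 0.6 for endoderm (13 of 15 above 0). For tail bud, which shares symbols with this list, it was 0.25 (19 of 23). It was 0.27 for epidermis and cement gland and 0.08 for the midbrain-hindbrain boundary. Medians were -0.23 for muscle, -0.24 for blood and vessel, -0.07 for pharyngeal arch and -0.06 for neural progenitors.

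The second question was whether embryos in large groups differed from those in small ones. No FGF gene was called for 300 against 100 with treatments averaged, in untreated embryos, in treated embryos, or for the difference between those responses, without or with the block in edgeR, and 0% of all genes were called in each of these. DESeq2 called 0 of the 51 as well, without or with the block. At an unadjusted edgeR p under 0.05 stood 0, 0, 0 and 1 of the 51 in these comparisons, and 1, 1, 1 and 3 with the block, against 1.35%, 1.76%, 0.727% and 0.989% of all genes without it and 5.16%, 7.59%, 2.98% and 5.41% with it.

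With the block and treatments averaged, the smallest adjusted p among FGF genes in edgeR was 0.859, for fgf20.L. Without the block the ligand fgf3.L was the FGF gene with the smallest p. It measured 2.04, 2.59 and 0.854 CPM in untreated 100-embryo groups, 2.90, 2.70 and 3.02 in untreated 300-embryo groups, 2.27, 2.38 and 1.76 in treated 100-embryo groups, and 3.49, 2.54 and 3.02 in treated 300-embryo groups. The library from 300 embryos was the higher one in 6 of 6 pairs, which held for 1 of the 51 genes and for 0.999% of all genes. The ranges of the 6 libraries at each size overlapped, though within untreated and within treated embryos the 3 and 3 libraries lay apart. Counts of fgf3.L were low, from 3 (sample 3 of untreated 100-embryo groups) to 22 (sample 1 of untreated 300-embryo groups). The log2 fold change was 0.55 (SE 0.29, adjusted p = 1 in edgeR). The copy fgf3.S measured 11.5, 9.79 and 7.68 CPM in untreated 100-embryo groups, 8.05, 9.30 and 9.42 in untreated 300-embryo groups, 6.52, 8.89 and 9.70 in treated 100-embryo groups, and 7.76, 9.90 and 10.6 in treated 300-embryo groups, a log2 difference of 0.02 (SE 0.17).

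The lowest log2 fold change for group size was that of flrt1.L, at -1.22 (SE 0.69, adjusted p = 1). Its levels were 0.875, 2.59 and 5.98 CPM in untreated 100-embryo groups, 0.792, 1.65 and 3.02 in untreated 300-embryo groups, 1.42, 1.25 and 11.5 in treated 100-embryo groups, and 0.388, 1.47 and 2.42 in treated 300-embryo groups. Sample 3 was the highest in every group, and 1 library, sample 3 of treated 100-embryo groups, stood far above the rest. Among treated embryos the log2 fold change was -1.68 with that library and 0.04 without it.

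Both copies of fgfr4, the receptor gene with the smallest p here without the block, lay near 0 for group size. The copy fgfr4.S measured 67.9, 65.7 and 77.7 CPM in untreated 100-embryo groups, 49.9, 60.3 and 60.8 in untreated 300-embryo groups, 50.4, 49.8 and 86.4 in treated 100-embryo groups, and 52.5, 62.9 and 61.3 in treated 300-embryo groups. The 3 untreated libraries from 300 embryos were below the 3 from 100, and the treated libraries overlapped, with a log2 difference of -0.19 (SE 0.15) over both. For fgfr4.L the values were 103, 111 and 133 CPM in untreated 100-embryo groups, 75.5, 105 and 115 in untreated 300-embryo groups, 78.7, 90.7 and 123 in treated 100-embryo groups, and 90.2, 123 and 121 in treated 300-embryo groups. Like fgf20.S, fgfr4.L was lower with thioridazine in 3 of 3 pairs of groups of 100 and higher in 3 of 3 of groups of 300, and the difference between the responses was 0.43 on the log2 scale (SE 0.32, edgeR adjusted p = 1). Opposite pairs of this kind, in either order, were found for 2 of the 51 FGF genes and for 4.33% of all genes.

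The Sprouty gene spry1.L and the adaptor frs3.L complete the genes with the smallest p without the block. In untreated 100-embryo groups spry1.L measured 91.3, 87.0 and 106 CPM, in untreated 300-embryo groups 75.9, 86.1 and 80.5, in treated 100-embryo groups 81.6, 90.2 and 82.9, and in treated 300-embryo groups 92.1, 98.3 and 80.9. The untreated libraries from 300 embryos were all below those from 100 (log2 difference -0.23, SE 0.15, adjusted p = 1), and the treated ones overlapped. The copy spry1.S, at 53.1, 44.1 and 42.4, then 39.3, 58.2 and 56.9, then 38.9, 55.1 and 46.1, and 54.7, 62.2 and 45.0 CPM in the same order of groups, overlapped throughout. Frs3 is an adaptor related to Frs2, and frs3.L measured 1.17, 1.73 and 2.56 CPM in untreated 100-embryo groups, 1.32, 1.65 and 1.96 in untreated 300-embryo groups, 2.27, 2.63 and 3.23 in treated 100-embryo groups, and 1.16, 2.14 and 1.81 in treated 300-embryo groups. Among treated libraries those from 300 embryos were all below those from 100 (log2 difference -0.64, SE 0.45, adjusted p = 1). The nearest of these libraries lay at 2.14 and 2.27 CPM, with 16 counts each. The copy frs3.S measured 8.89, 10.9 and 8.54, then 9.90, 10.8 and 10.7, then 9.36, 11.8 and 11.8, and 9.69, 11.2 and 13.3 CPM, with overlap. Ranges apart within a single comparison of 3 libraries with 3 are described for spry2.S, fgfr4.S, spry1.L and frs3.L. Other FGF genes had them too, among them fgf3.L for group size in untreated and in treated embryos. Further cases were fgf20.S for group size in treated embryos, and spry4.L and fgfr1op2.L for thioridazine in groups of 100. These genes were named for their small p. Neither the number of FGF genes with such ranges nor the share of all genes was computed.

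Across the 51 genes the group-size differences had a median of 0.05 on the log2 scale with treatments averaged (all genes 0.01), and 35 were above 0. Of the 14 feedback inhibitors, 7 were above 0 in untreated embryos (median 0.02) and 12 in treated ones (median 0.12). The 95% interval lay within a 2-fold change for 42 of the 51 genes with treatments averaged, for 38 in untreated and 37 in treated embryos, and for 25 when the responses of treated and untreated embryos were compared with each other (79.2%, 59.1%, 62.9% and 35.1% of all genes). For fgf8.L the interval was -0.47 to 0.44, for fgfr1.L -0.23 to 0.53 and for dusp6.L -0.21 to 0.43. These values are from the fit without the block. With the block, the intervals of 45, 42, 42 and 35 of the 51 genes lay within 2-fold in the same order of comparisons. Over all genes the shares were then 91.5%, 76.2%, 80.3% and 56.9%.

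The last comparison followed the sample numbers of the labels, with the 4 groups as a factor. The 12 libraries varied more by number than by group: the sample number held a median of 48.4% of the variance of log2 CPM of the FGF genes and the 4 groups 16.1%, beside 45.3% and 15.6% over all genes. With no structure at all the expected mean shares would be 18.2% and 27.3%, which are means and not medians. The number held the larger share for 42 of the 51 genes (74.8% of all genes). The FGF genes were thus close to the rest of the transcriptome in this respect.

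Between the 4 libraries numbered 1 and the 8 others, 22 of the 51 FGF genes were called, 10 higher and 12 lower, against 40.8% of all genes, 22.8% higher and 18% lower. Of the genes called, 4 owed their place among the tested genes to this contrast: fgf13.S, fgf5.S and fgf7.L reached 1.8 CPM only in libraries numbered 1, and flrt1.L in none of them. Their values are therefore given as a description. Among the other 47 genes 7 were higher and 11 lower, against 21.7% and 17.7% of all genes that reached the minimum on both sides. Leaving out 1 library at a time gave from 13 calls (without sample 1 of untreated or of treated 300-embryo groups) to 25 (without sample 2 of untreated 100-embryo groups). What the sample number stands for is not given in the labels, and its part in these values was not tested. Both genes of the ETS set, etv1.S and etv4.L, were lower in sample 1, as were 4 of the 10 ligands. Higher were 2 ligands, fgf5.S and fgf7.L. Both copies of fgfbp1 and of dusp6 and 2 of the 3 intracellular factors were higher, 1 of these being fgf13.S.

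Among the genes higher in sample 1, fgfbp1.L lay between 23.5 and 34.8 CPM in the 4 libraries numbered 1 and between 8.82 and 16.8 in the others (log2 fold change 1.27, SE 0.13, edgeR adjusted p = 6.49e-06). Fgf13 and Fgf12 belong to the FGF homologous factors, which stay inside the cell and bind sodium channels in neurons and muscle. For fgf13.L the values were 12, 7.20 and 4.55 CPM in untreated 100-embryo groups, 17.9, 5.25 and 7.82 in untreated 300-embryo groups, 13.2, 5.64 and 4.70 in treated 100-embryo groups, and 10.7, 4.01 and 4.83 in treated 300-embryo groups. Sample 1 was the highest in each group without overlap (log2 fold change 1.29, SE 0.17). The copy fgf13.S had 12, 18, 10 and 11 counts in the 4 libraries numbered 1 and between 0 and 3 counts in each of the other 8, so that it passed the filter only through sample 1. The ligand fgf7.L, which also passed only through sample 1, had 14, 22, 28 and 32 counts there and at most 10 in the others. In CPM it measured 2.04, 0.864 and 0.569, then 2.90, 1.5 and 1.24, then 3.97, 0.376 and 0.882, and 6.20, 0.401 and 0.302 in the 4 groups. Also called higher were the receptor copy fgfr3.S, both copies of dusp6, flrt2.S, and fgfbp1.S, for which 2 of the 3 libraries at the minimum were numbered 1. The call of fgf5.S rests on 3 libraries at the minimum, all numbered 1.

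Among the genes lower in sample 1, the ligand fgf2 measured 4.67, 7.77 and 6.83 CPM in untreated 100-embryo groups, 3.30, 11.4 and 9.60 in untreated 300-embryo groups, 4.40, 10.9 and 7.05 in treated 100-embryo groups, and 2.71, 10.8 and 6.95 in treated 300-embryo groups. All 4 libraries numbered 1 were below the other 8 (log2 fold change -1.23, SE 0.20). For etv1.S the values were 304, 311 and 357 CPM, then 194, 456 and 380, then 216, 407 and 312, and 253, 479 and 350 in the same order of groups, again without overlap (-0.65, SE 0.15). The ligand fgf20.L, given above, was lower by the same comparison (-1.07, SE 0.23) without overlap. The levels of flrt1.L, given above, overlapped, and none of the 5 libraries through which it passed the filter was numbered 1. The other 8 genes called lower were fgf8.L, fgf8.S, fgfr1.L, fgfr4.L, fgfrl1.L, frs2.L, etv4.L and il17rd.S, with log2 fold changes between -0.41 and -0.54.

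**Figure D3:**
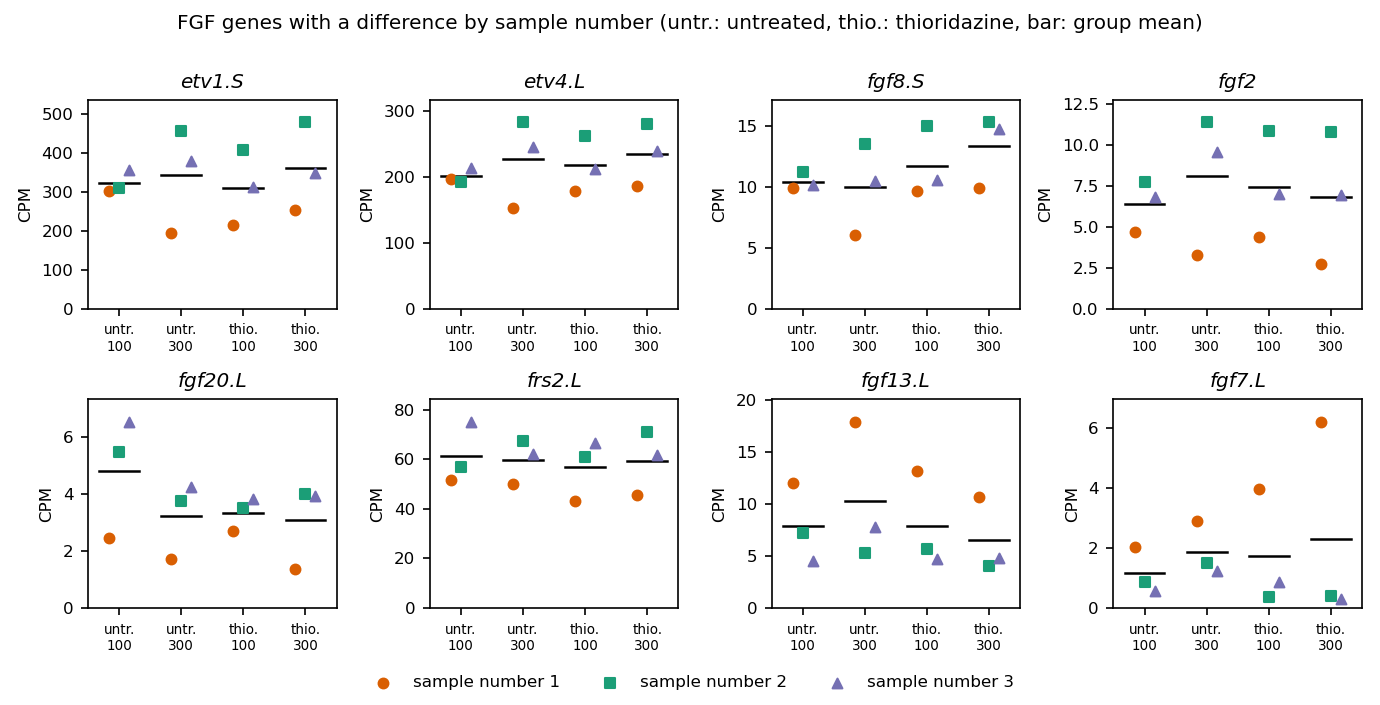
CPM of 8 FGF genes called between sample number 1 and the others (y axis, from 0), by group (x axis), with 1 point per library, the marker giving the sample number and the bar the mean of 3 libraries. Sample 1 is the lowest in every group for etv1.S, fgf2 and fgf20.L, and the highest in every group for fgf13.L and fgf7.L.

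The ranges of the 4 and the 8 libraries did not overlap for 11 FGF genes. They were 6 higher genes (dusp6.L, fgf13.L, fgf13.S, fgf7.L, fgfbp1.L and fgfr3.S), where 12.7% of all genes lay that way. Of these, fgf13.S and fgf7.L passed the filter only through sample 1. The 5 lower ones were etv1.S, fgf2, fgf20.L, fgf8.S and frs2.L, where 8.18% of all genes lay that way. The copies of a gene mostly shared a direction here: in 20 of the 21 pairs with both copies kept the log2 fold changes had the same sign, and for dusp6, fgf8, fgf13 and fgfbp1 both copies were called. With thioridazine 17 of the 21 pairs had the same sign, and for group size 9 of 21. The share over all pairs of copies in the series was not computed, and copies may share reads. Of the pairs with both copies called, fgf13.S passed the filter only through sample 1 and fgfbp1.S had few counts.

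**Figure D4:**
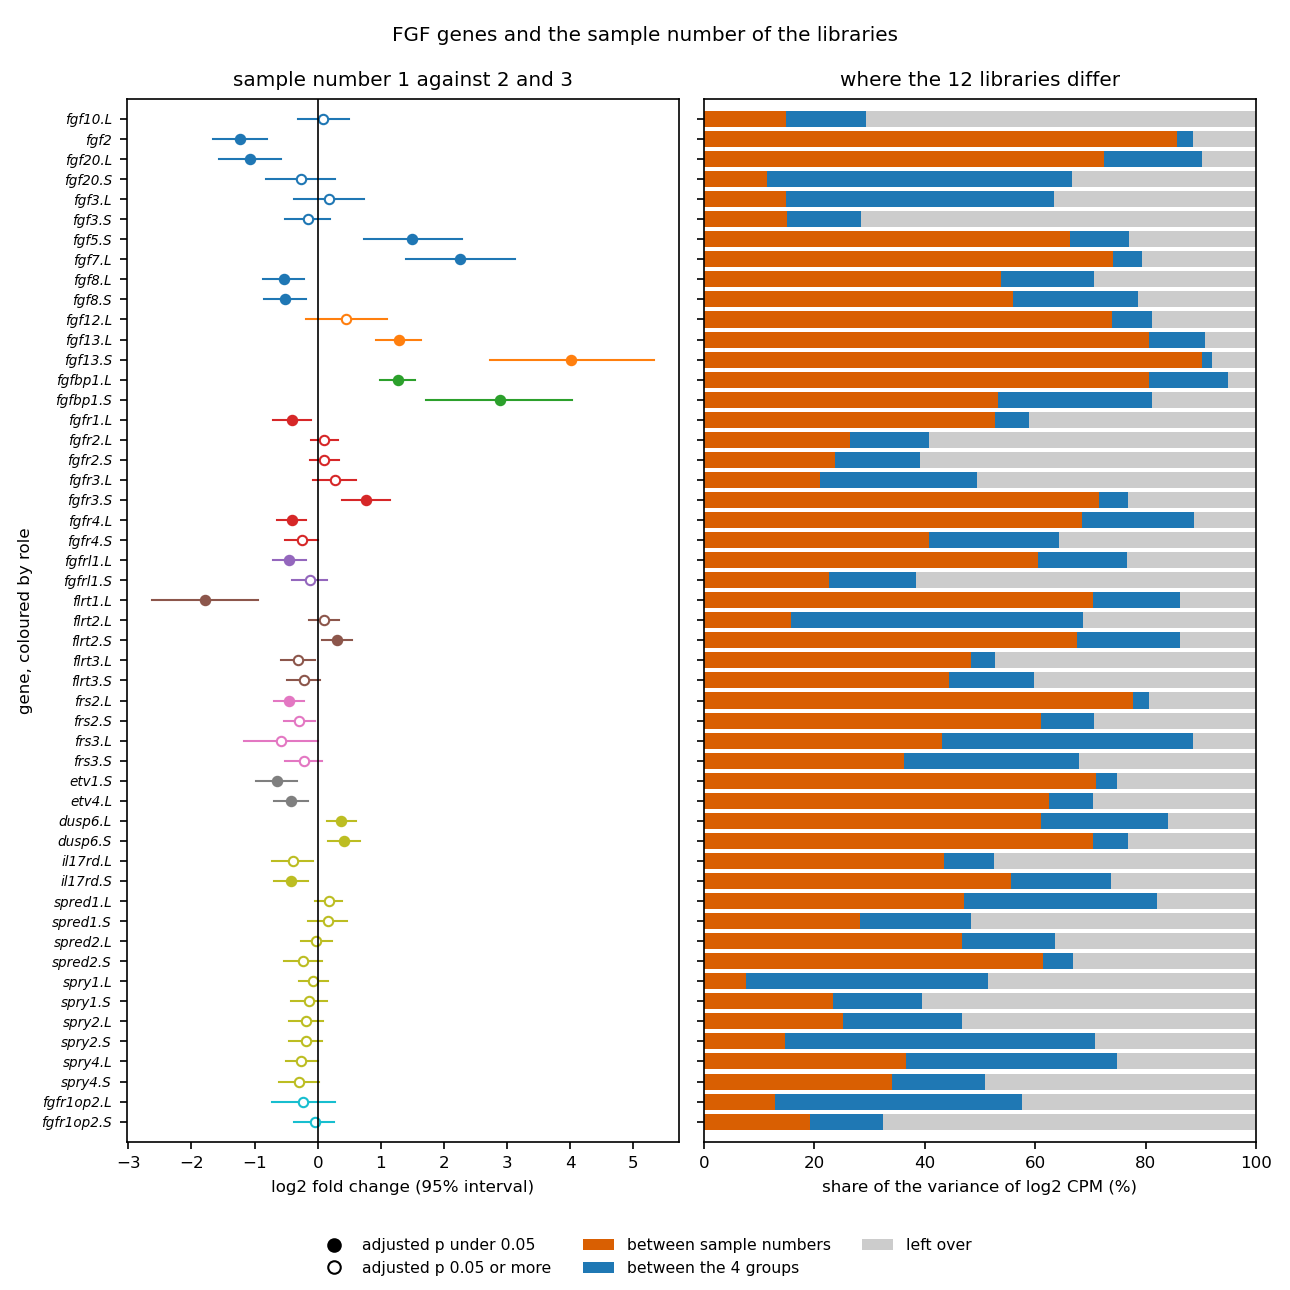
Left, log2 fold change with its 95% interval (x axis) of the 51 FGF genes (rows, coloured by role) between sample number 1 and numbers 2 and 3, filled where the adjusted p was under 0.05. Right, the share of the variance of log2 CPM in percent (x axis) between sample numbers, between the 4 groups and left over, with 22 filled points and a median share of 48.4% for the sample number.

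Tissue lists were compared by sample number in the same way, against 22.8% of all genes higher and 18% lower. Of 23 measured genes of tail bud and presomitic mesoderm, where Fgf8 is known to act, 19 were lower in sample 1 and none higher (median log2 fold change -1.03, all genes 0.02). Their summed level was 438.9 to 702.8 CPM in the libraries numbered 1, 918 to 1130 in those numbered 2 and 892 to 1167 in those numbered 3. Examples were cdx4.S at -1.30 (SE 0.14, adjusted p = 1.01e-05) and tbx6.S at -1.20 (SE 0.16, adjusted p = 6.99e-05), transcription factors of the posterior body. Of 20 genes of somite and skeletal muscle, 12 were higher and 4 lower. The higher ones included tnni2.S, a troponin of contracting fibres (1.02, SE 0.14, adjusted p = 8.26e-05), and the lower ones myf5.S and myf5.L, which mark muscle precursors (-1.36, SE 0.17, adjusted p = 2.96e-05 and -0.83, SE 0.13, adjusted p = 0.000178). The summed level of the muscle list was 5409 to 7161 CPM in sample 1, 4187 to 4792 in sample 2 and 3394 to 4519 in sample 3. Of 10 blood and vessel genes 7 were higher and none lower (median 0.92), with a summed level of 150.5 to 164.9 CPM in sample 1, 107.4 to 121.2 in sample 2 and 87.28 to 110.4 in sample 3. In the remaining lists a smaller share of the genes was called. In the list of the midbrain-hindbrain boundary 2 of 8 genes were lower and none higher (median 0.05). Both were copies of the same gene, pax8, and values of whole embryos do not show in which tissue it was lower. Of the pharyngeal arch and neural crest genes 7 of 22 were higher and 2 lower, of the neural progenitor genes 1 of 13 was higher and none lower, of the endoderm genes 1 of 15 was higher and 5 lower, and of 7 genes of epidermis and cement gland none was called. The list symbols ripply2 and des were not among the genes kept, nor were pax5, gbx2 and lmx1b of the midbrain-hindbrain boundary. The same holds for hes5, sox17b, krt12, krt5 and muc2 of the other lists. The part of these lists in the FGF values was not tested.

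The other lists of the pathway were read against the same shares of all genes, 22.8% higher and 18% lower. In the Ras and Erk cascade 13 of 52 genes were higher and 9 lower, near those shares, led by rps6ka6.S (1.06, SE 0.14, adjusted p = 6.12e-05), a kinase downstream of Erk. Among genes of heparan sulfate 9 of 45 were higher, near the share of all genes, and 1 lower, under it, led by the core protein sdc3.L (2.07, SE 0.32, adjusted p = 0.000178). Of the 42 genes known to respond to FGF or Erk, 4 were higher, under the share of all genes, and 15 lower, above it. In sum these calls are near the 40.8% of all genes called in either direction. The symbols tbxt, tbx6, msgn1, cdx1, cdx2, cdx4 and wnt3a stand in that list as well as in that of the tail bud. The lower genes of these lists are therefore partly the same genes, among them cdx4.S and both copies of tbx6.

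Fewer genes differed between samples 2 and 3: 2 of the 51 FGF genes were called, both lower in sample 2, against 2.44% of all genes (1.79% lower and 0.649% higher). They were flrt1.L (log2 fold change -1.61, SE 0.39, edgeR adjusted p = 0.0432) and fgf12.L (-1.54, SE 0.38, adjusted p = 0.0497). Of the 5 libraries in which flrt1.L reached the filter's minimum, 4 were numbered 3. The gene fgf12.L reached it in 8 libraries, 4 of them numbered 1. None was numbered 2, where fgf12.L had 3, 11, 5 and 10 counts in the order of groups used above. The values of both genes here are therefore a description as well. The levels of fgf12.L were 2.33, 0.864 and 2.56 CPM in untreated 100-embryo groups, 2.90, 1.65 and 2.84 in untreated 300-embryo groups, 1.84, 0.626 and 4.70 in treated 100-embryo groups, and 3.49, 1.34 and 3.02 in treated 300-embryo groups. Sample 2 was the lowest in every group, and the 4 libraries numbered 2 did not overlap with those numbered 3, which held for 4.08% of all genes. Leaving out 1 library at a time gave between 0 and 2 calls, and 0 in most cases. Both calls stayed only without sample 1 of untreated 100-embryo groups or without sample 3 of untreated 300-embryo groups.

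The genes with the next smallest p between samples 2 and 3 did not pass. For spred2.L, an inhibitor of Ras signalling, the values were 84.3, 75.4 and 64.6 CPM, then 75.6, 95.2 and 87.1, then 76.3, 92.1 and 62.0, and 73.9, 89.5 and 70.4 in the order of groups used above, with sample 2 above sample 3 in all 4 groups (log2 fold change 0.31, SE 0.13, adjusted p = 0.224). The copy spred2.S measured 12.2, 13.5 and 10.5, then 11.1, 13.2 and 13.9, then 10.8, 15.4 and 11.5, and 9.69, 15.7 and 9.97 CPM. For dusp6.S the values were 55.7, 42.0 and 40.4, then 48.2, 45.7 and 41.6, then 52.8, 49.5 and 34.1, and 71.4, 51 and 35.3 CPM (0.31, SE 0.14, adjusted p = 0.262), and for dusp6.L 61.8, 51.3 and 44.1, then 64.8, 49.6 and 56.5, then 67.4, 54.6 and 59.7, and 83.6, 56.2 and 54.7. For dusp6.S sample 2 lay above sample 3 in every group, and for dusp6.L in 2 of the 4 groups.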

How the data were processed

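RNA of 12 samples was sequenced after rRNA depletion with a stranded kit as single-end reads of 75 nucleotides. After trimming (fastp), the authors used Bowtie2 for rRNA sequences and STAR for alignment to the genome, and deposited expected counts per gene estimated with RSEM. A version is named for the rRNA sequences. For tool versions, the build of the genome given to STAR and the use of strand in counting, the sources used here name none. A deposited table of log2 CPM, which the authors made by filtering, TMM and voom, holds 21720 genes and all 51 FGF genes, and was used only in an alternative. RSEM divides reads that fit several genes: 71.7% of the FGF values were not whole (within 0.005), beside 38.8% of all values above 0, so that values of .L and .S copies may share reads. The labels describe the treated embryos as stage 25 at exposure and also give exposure from stage 12.5 to 25. The second was taken here.

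Expected counts were rounded and filtered at 1.8 CPM in 3 libraries. After TMM scaling, a robust quasi-likelihood test of edgeR 4.0.16 was run in R 4.3.3, with 4 group means over all 12 libraries and p-values adjusted by Benjamini-Hochberg over all 21731 genes at a threshold of 0.05. Levels are CPM with TMM factors, which depend on gene length, so levels of different genes were not compared. Shares of variance were computed on log2 CPM with a prior count of 2. Sample numbers were compared with group as a factor. Same-numbered samples deviated together (r of 0.282 to 0.769 over 18 pairs, against -0.628 to 0.182 for other pairs), so the number was treated as a pairing and a second fit held it as a block. No 2 libraries agreed within sampling noise (chi-square per gene of at least 3.074).

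Alternatives were DESeq2 1.42.0, voom without and with 2 surrogate variables (limma 3.58.1, sva 3.50.0), limma trend on the deposited log2 values, other size factors, no filter, copies summed, each library left out, and the libraries numbered 1 left out. DESeq2 with the block was added after seeing the data. Fits were tested on simulated data. The members and lists were chosen with earlier results of these data known. Values in every sample are given for the 3 FGF genes with the smallest p of each treatment or size comparison in the fit without the block. They are also given for the 4 in each direction for sample numbers, their other copies, and genes called. Other genes are named only from the lists of pathway and tissue genes, where past the threshold, at most 3 per list. List symbols that were absent or shared between lists are named as well. fgfbp1.L, fgf8, fgf5.S and others given by intervals or counts were named by role. All 51 symbols matched RefSeq names of assembly Xenopus_laevis_v10.1. No coordinates or sequences are printed, since the build of the files is not stated.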

Additional observations from a re-analysis of the deposited data

Results flagged for a closer look

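For fgf20.S, an FGF ligand copy, the treated library was lower than the untreated one of the same number in 3 of 3 pairs of groups of 100 and higher in 3 of 3 pairs of groups of 300. The difference between the group-size responses was 1.29 on the log2 scale (SE 0.55, edgeR adjusted p = 1), so the test of the difference itself was not passed. Counts of fgf20.S were low, from 9 to 29 in a library. The receptor copy fgfr4.L showed the same arrangement of pairs, with a difference of 0.43 (SE 0.32, edgeR adjusted p = 1). Of all genes, 4.33% had opposite pairs of this kind.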

How the results depend on the processing

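With the replicate block, 0 FGF genes were called in each of the 7 comparisons of treatment and group size, as without it. The block was an alternative only for these comparisons. Of the alternatives for these 7 comparisons, 1 gave a call: voom with 2 surrogate variables called 1 FGF gene, fgfbp1.L, for thioridazine with sizes averaged. For sample number 1 the FGF count of 22 ran from 13 to 25 with 1 library left out. For sample 2 against 3 the count of 2 ran from 0 to 2 in the same way, mostly 0, and was 1 with voom. Of the log2 fold changes of named genes, 710 kept direction and side of the threshold, 18 lost the threshold (all of flrt1.L or fgf12.L between samples 2 and 3) and 2 changed sign. These were flrt1.L for group size under thioridazine, from -2.17 to 0.04 with 1 library left out (0.04 without sample 3 of treated groups of 100), and fgfbp1.S between samples 2 and 3, 0.13 with copies summed. The cause was not tested.

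Over all genes, thioridazine with sizes averaged gave 19 calls, 94 with the block, 50 with DESeq2, 120 with DESeq2 and the block, 128 with surrogate variables and from 2 to 19 with 1 library left out. Group size in untreated embryos gave 0 calls in edgeR, 32 with DESeq2 and the block, and 1024 with the block once libraries numbered 1 were left out (1050 with treatments averaged), none of them an FGF gene. Depth limits the genes under 3 CPM most, where 1 count in a shallow library is 0.302 CPM.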
